A study of Mus musculus with 12 samples.

Results

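mpkCCD cells are an immortalized mouse line derived from principal cells of the kidney cortical collecting duct, the tubule segment that adjusts sodium and water excretion. The 4 genes described here, Slco4a1, Scel, Clmn and Phldb2, were selected on their difference between Nfat5-KO and Scr cells under isotonic conditions, so that contrast (Nfat5-KO_300 against Scr_300) chose them and its values are a description. They are 4 of 52015 genes with a value, of which 13414 had 0.5 FPKM or more (fragments per kilobase of exon, scaled to library size) in a group, and all 4 passed this filter in every comparison. Poly(A) RNA was sequenced from 12 cultures kept for 5 days at 300 mosmol/kg (isotonic) or at 600 mosmol/kg (hypertonic), the latter reached by adding 100 mM NaCl and 100 mM urea to the medium. Scr_300 and Scr_600 had 2 libraries each, from cells that carried a scramble guide RNA without a target and were labelled wild type. The knockout groups, Nfat5-KO_300 and Nfat5-KO_600, held 4 libraries each and came from N1 and N3, a pair of clones in which Nfat5 was deleted with CRISPR/Cas9. Each knockout line is thus 1 clone, and a property of the clones cannot be told apart from the loss of NFAT5 in these values. The deposited data hold 1 value per gene and group, so the spread between cultures and between the clones is not known and no p-value was calculated.

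NFAT5, also named TonEBP, is a transcription factor that enters the nucleus when the medium becomes hypertonic and turns on genes for the uptake and synthesis of organic osmolytes and for heat shock proteins. The 4 genes are not part of that classical osmoprotective set. Slco4a1 encodes OATP4A1, an organic anion transporting polypeptide of the plasma membrane that carries thyroid hormones and other organic anions. Scel encodes sciellin, a LIM domain protein that is cross-linked into the cornified envelope of stratified epithelia. Clmn encodes calmin, a protein with calponin-homology domains and a membrane anchor at its end. Phldb2 encodes LL5 beta, which binds the lipid PIP3 through a pleckstrin-homology domain and anchors microtubule plus ends at the basal cell cortex together with CLASP, ELKS, liprin and KANK proteins.

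In the GENCODE annotation of GRCm38, Slco4a1 (ENSMUSG00000038963) lies on chromosome 2 from 180456245 to 180474867 on the plus strand and Scel (ENSMUSG00000022123) on chromosome 14 from 103513342 to 103612797 on the plus strand. Clmn (ENSMUSG00000021097) lies on chromosome 12 from 104763117 to 104865076 and Phldb2 (ENSMUSG00000033149) on chromosome 16 from 45746243 to 45953598, both on the minus strand. Their exons cover 4799 bases for Slco4a1, 2503 bases for Scel, 12409 bases for Clmn and 7577 bases for Phldb2. No annotated gene overlaps Slco4a1 or Scel. On the opposite strand, 4930408O17Rik overlaps Clmn and reached at most 0.0546 FPKM in a group. Gm15640 and Gm15638 overlap Phldb2 in the same way and reached at most 0.124 and 0.112 FPKM, and whether the counting used strand is not given in the sources used here.

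The 250 bases before an annotated start of each gene (RefSeq, GRCm38.p6, which lists windows for 4 of 4 genes) are shown because they differ in G+C share and motif matches, although the genes were chosen by 1 common criterion. Which start is used in these cells is not known from these values. They are written 5′ to 3′ on the strand of the gene and end at the base before the start, with matches to GGGCGG (the GC box bound by SP1-like factors) and TGACTCA (the binding sequence of AP-1 factors) in capitals on either strand, so that a GC box on the other strand reads CCGCCC. The windows are chr2:180455995-180456244 for Slco4a1, chr14:103513091-103513340 for Scel, chr12:104865077-104865326 for Clmn and chr16:45844379-45844628 for Phldb2.
Slco4a1: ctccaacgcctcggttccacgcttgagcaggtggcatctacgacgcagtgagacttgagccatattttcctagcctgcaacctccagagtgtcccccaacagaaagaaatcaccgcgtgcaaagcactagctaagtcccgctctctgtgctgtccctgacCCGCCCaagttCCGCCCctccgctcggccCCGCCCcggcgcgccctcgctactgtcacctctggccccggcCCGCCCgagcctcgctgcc
Scel: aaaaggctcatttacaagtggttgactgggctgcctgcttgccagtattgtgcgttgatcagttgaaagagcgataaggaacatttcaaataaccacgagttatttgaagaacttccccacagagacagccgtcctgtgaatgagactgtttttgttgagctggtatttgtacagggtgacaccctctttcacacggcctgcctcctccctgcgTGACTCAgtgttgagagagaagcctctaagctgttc
Clmn: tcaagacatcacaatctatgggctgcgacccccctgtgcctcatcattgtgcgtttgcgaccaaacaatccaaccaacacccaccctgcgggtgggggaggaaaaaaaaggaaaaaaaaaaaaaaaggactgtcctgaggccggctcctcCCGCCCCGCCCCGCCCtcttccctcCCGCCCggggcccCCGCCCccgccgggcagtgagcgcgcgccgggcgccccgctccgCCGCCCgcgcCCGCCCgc
Phldb2: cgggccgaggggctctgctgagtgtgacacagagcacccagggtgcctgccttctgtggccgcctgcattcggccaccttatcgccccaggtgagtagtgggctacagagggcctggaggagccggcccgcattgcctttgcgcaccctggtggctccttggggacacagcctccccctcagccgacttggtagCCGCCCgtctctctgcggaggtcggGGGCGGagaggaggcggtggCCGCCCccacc

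The Slco4a1 window held 4 GC boxes, the Clmn window 7 and the Phldb2 window 3, while the Scel window held none and had instead 1 TGACTCA match from 36 to 30 bases before the start. In Clmn, 3 of the GC boxes overlap by 1 base in an unbroken run. Of the 32851 RefSeq windows of the same length, 32.7% held a GC box and 4.46% held TGACTCA. The G+C share was 64.8% for Slco4a1, 67.6% for Clmn, 70% for Phldb2 and 47.6% for Scel, against a median of 52.4% over all windows. The observed to expected ratio of CpG was 0.877 in the Slco4a1 window, 0.930 in the Clmn window, 0.523 in the Phldb2 window and 0.424 in the Scel window, with a median of 0.373. The consensus of the tonicity-responsive enhancer (TonE), found in 4.31% of all windows on either strand, and its core TGGAAA, found in 18.6% and contained in every TonE match, had no match in these windows, nor had CCAAT (33.8%) or TATAAA (12.4%). A second RefSeq start of Slco4a1, at chr2:180460728-180460977 inside the gene, held no match to any of the 6 motifs. The Phldb2 window belongs to a start inside the annotated gene, so a longer transcript begins farther upstream.

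As the targeted gene, Nfat5 had 5.61 FPKM in Scr_300, 7.93 in Scr_600, 3.47 in Nfat5-KO_300 and 6.88 in Nfat5-KO_600. Its RNA was thus 1.62-fold lower in the knockout at 300 mosmol/kg and 1.15-fold lower at 600 mosmol/kg, and where the edit lies is not given in the sources used here, so this level is no check of the genotype. The list of known osmoprotective NFAT5 targets had 10 expressed genes, with Nfat5 itself counted among them. At 600 mosmol/kg 7 of the 10 had knockout levels at least 2-fold below Scr (median log2 ratio -1.91), and Nfat5 (-0.20) was not among these 7. At 300 mosmol/kg 0 of the 7 with enough signal were at least 2-fold lower, but all 7 were lower in the knockout. Their log2 ratios ran from -0.18 (Slc5a3) to -0.998 (Slc38a2), with -0.80 for Hspa1b and -0.72 for Akr1b3. The median there (-0.68) is the value of Nfat5, the edited gene, and so does not describe its targets alone. All 9 markers of collecting duct epithelium were expressed, but of 12 principal cell markers only 5 reached 0.5 FPKM. Aqp2 had 0 to 0.245 FPKM and Scnn1b at most 0.173 FPKM, and 4 markers, Aqp4, Avpr2, Scnn1g and Elf5, stayed under 0.1 FPKM in the 4 groups. The steps in the low values put the total behind each library at 29300000 to 37500000 reads, which gives the 95% counting intervals below, and these cover counting error only. In bulk RNA, fewer cells that express a gene and less RNA per cell cannot be told apart.

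Slco4a1 was the gene with the widest range of levels among the 4. Its level was 3.72 FPKM in Scr_300, 46.2 in Scr_600, 1.01 in Nfat5-KO_300 and 4.77 in Nfat5-KO_600, from an estimated 1207, 16012, 605 and 3215 reads. The highest group was hypertonic Scr, and hypertonic Nfat5-KO cells reached about the level that Scr cells already had in isotonic medium. At 300 mosmol/kg, Slco4a1 was 3.69-fold lower in Nfat5-KO cells, a log2 ratio of FPKM + 0.1 of -1.79 (counting interval -1.93 to -1.65). At 600 mosmol/kg it was 9.69-fold lower, with a log2 ratio of -3.25 (-3.30 to -3.19), rank 21 from the lowest of 13063 genes. The OATP4A1 transcript therefore showed the same direction in both media and a larger genotype difference in hypertonic medium. The hypertonic response was 12.4-fold upward in Scr cells (log2 ratio 3.60, rank 17 from the highest of 12929 genes) and 4.74-fold upward in Nfat5-KO cells (log2 ratio 2.14). The response in Nfat5-KO cells was smaller by 1.46 on the log2 scale (counting interval of the difference -1.61 to -1.31).

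**Figure D1:**
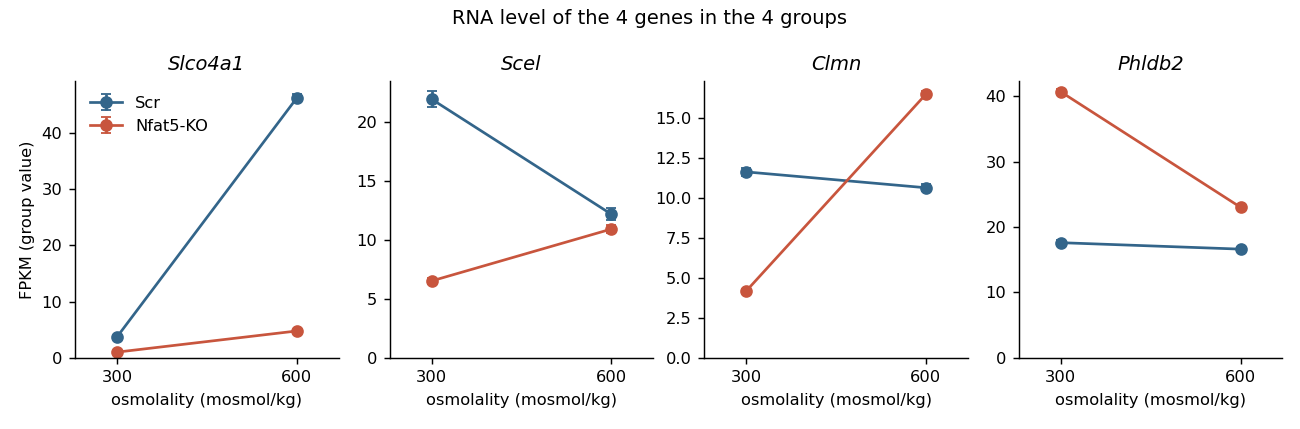
FPKM (vertical axis, linear from 0, a separate scale for each gene) at 300 and 600 mosmol/kg in Scr (blue) and Nfat5-KO cells (red), as the 1 deposited value per group, with bars for the 95% counting interval only. Slco4a1 reached 46.2 FPKM in hypertonic Scr cells against 1.01 to 4.77 elsewhere, the lines of Clmn cross, those of Scel converge at 600 mosmol/kg, and Phldb2 was highest in isotonic Nfat5-KO cells.

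Scel differed between the genotypes mainly in isotonic medium. Its level was 21.9 FPKM in Scr_300, 12.2 in Scr_600, 6.52 in Nfat5-KO_300 and 10.9 in Nfat5-KO_600, from an estimated 3715, 2202, 2044 and 3840 reads. Isotonic Scr cells were highest and isotonic Nfat5-KO cells lowest, with the hypertonic groups close together between them. Sciellin RNA was 3.37-fold lower in the knockout at 300 mosmol/kg (log2 ratio -1.74, counting interval -1.81 to -1.66) and 1.12-fold lower at 600 mosmol/kg (log2 ratio -0.16, -0.23 to -0.08). The second of these is small, and whether it exceeds the spread between cultures is not known. Hypertonic medium was accompanied by opposite changes in the genotypes. Scel was 1.80-fold lower in hypertonic than in isotonic Scr cells (log2 ratio -0.84) and 1.68-fold higher in hypertonic than in isotonic Nfat5-KO cells (log2 ratio 0.74). The difference between these responses was 1.58 on the log2 scale (1.47 to 1.69), rank 184 from the highest of 13414 genes.

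Clmn changed the direction of its genotype difference with the medium. Its level was 11.6 FPKM in Scr_300, 10.6 in Scr_600, 4.17 in Nfat5-KO_300 and 16.5 in Nfat5-KO_600, from an estimated 9757, 9528, 6489 and 28732 reads. The Scr groups lay close together, and the Nfat5-KO groups lay below them in isotonic and above them in hypertonic medium. Calmin RNA was 2.78-fold lower in the knockout at 300 mosmol/kg (log2 ratio -1.46, counting interval -1.50 to -1.41) and 1.55-fold higher at 600 mosmol/kg (log2 ratio 0.63, 0.59 to 0.66). In Scr cells the log2 ratio of hypertonic against isotonic medium was -0.13, which became 0.0012 when the groups were scaled to the same FPKM sum, so it has no stable direction. In Nfat5-KO cells Clmn was 3.95-fold higher in hypertonic medium (log2 ratio 1.96, 1.92 to 1.99). The difference between the responses was 2.08 on the log2 scale (2.03 to 2.14), rank 89 from the highest of 13414 genes and the largest of the 4.

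Phldb2 was the 1 of the 4 genes with more RNA in the knockout, in both media. Its level was 17.6 FPKM in Scr_300, 16.6 in Scr_600, 40.7 in Nfat5-KO_300 and 23.0 in Nfat5-KO_600, from an estimated 9030, 9099, 38631 and 24521 reads. Isotonic Nfat5-KO cells stood above the other groups, and the Scr groups differed least. LL5 beta RNA was 2.31-fold higher in the knockout at 300 mosmol/kg (log2 ratio 1.20, counting interval 1.17 to 1.24) and 1.39-fold higher at 600 mosmol/kg (log2 ratio 0.47, 0.43 to 0.50). In Scr cells the log2 ratio of hypertonic against isotonic medium was -0.08, which became 0.05 with scaling to the same FPKM sum. In Nfat5-KO cells Phldb2 was 1.77-fold lower in hypertonic medium (log2 ratio -0.82, -0.84 to -0.80). The response in Nfat5-KO cells was lower by 0.74 on the log2 scale (-0.78 to -0.69) than that in Scr cells.

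Counting error alone left no neighbouring pair of groups overlapping within any of the 4 genes. The closest pairs were Scr_600 (11.7 to 12.7 FPKM) and Nfat5-KO_600 (10.6 to 11.3 FPKM) for Scel, and Scr_300 (17.3 to 18.0 FPKM) and Scr_600 (16.3 to 17.0 FPKM) for Phldb2. Because the variation between cultures is not known, the order of such close groups is not established. Per length, Slco4a1 ran from rank 11051 of 13414 genes in Nfat5-KO_300 (1.01 FPKM) to rank 940 in Scr_600 (46.2 FPKM), while the other 3 genes stayed between rank 7635 (Clmn in Nfat5-KO_300) and rank 1193 (Phldb2 in Nfat5-KO_300).

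The counts over all genes give the frame for these values. In Nfat5-KO_300 against Scr_300, the contrast that chose the genes, 2.44% of 12704 genes were at least 2-fold lower and 1.73% at least 2-fold higher, and by choice 3 of the 4 genes were among the former and 1 among the latter. In Nfat5-KO_600 against Scr_600, whose libraries are not part of that contrast, 1 of the 4 (Slco4a1) was at least 2-fold lower, where 3.68% of 13063 genes were. In the same comparison 0 of the 4 were at least 2-fold higher, where 3.76% were (491 genes higher and 481 lower, or 654 and 407 with scaling to the same FPKM sum). In Scr cells, hypertonic medium gave at least 2-fold higher values for 4.81% of genes, Slco4a1 among them, and at least 2-fold lower values for 2.86%, none of the 4 among them. In Nfat5-KO cells the shares were 6.25% higher (Slco4a1 and, at 3.95-fold, Clmn) and 4.11% lower (none of the 4), or 812 and 534 genes, which became 1318 and 274 with scaling to the same FPKM sum. The response of Nfat5-KO cells exceeded that of Scr cells at least 2-fold in 3.88% of 13414 genes, Scel and Clmn among them, and was at least 2-fold below it in 3.16%, Slco4a1 among them. The comparisons across media share Scr_300 or Nfat5-KO_300 with the contrast that chose the genes, so only the comparison at 600 mosmol/kg rests on other libraries. Those libraries come from the same clones N1 and N3, and the genes were chosen with earlier results of these data known. The values at 600 mosmol/kg are therefore a description as well and no independent support.

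**Figure D2:**
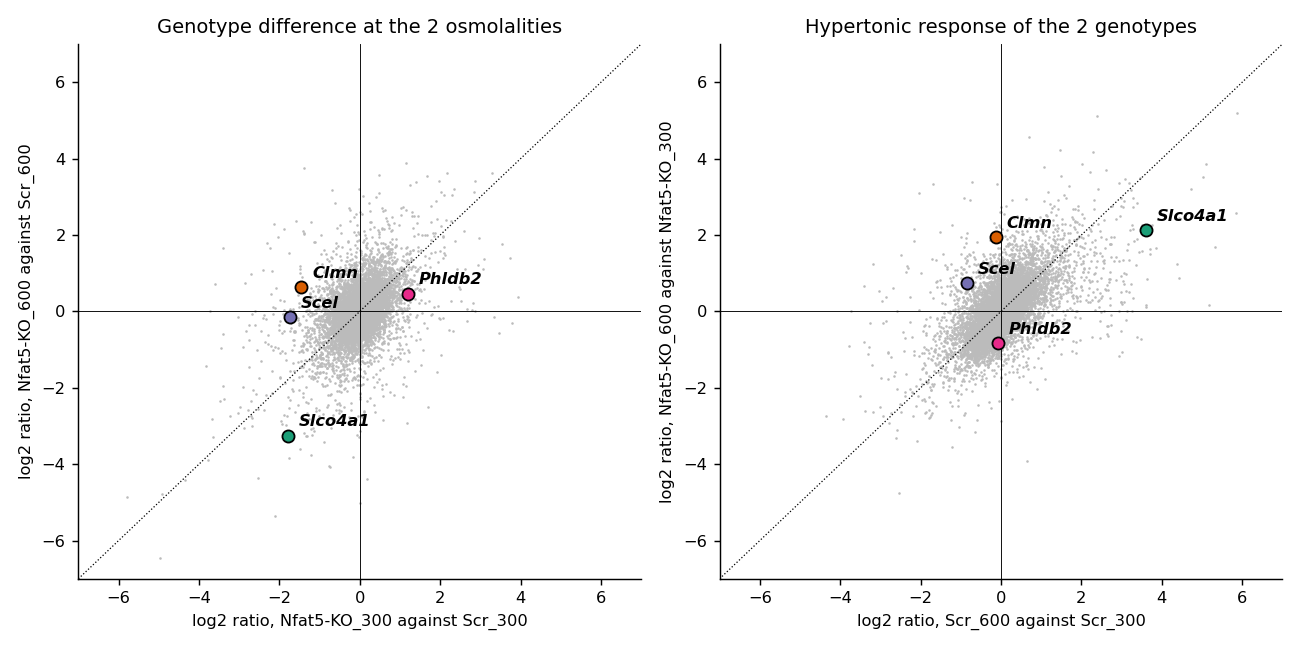
Each grey point is 1 of 13414 expressed genes (0.5 FPKM or more), and the 4 named genes are coloured. The left panel sets the genotype log2 ratio at 600 mosmol/kg (vertical) against that at 300 mosmol/kg (horizontal), the right panel the hypertonic log2 ratio in Nfat5-KO (vertical) against that in Scr cells (horizontal), and the dotted line marks equal values. Slco4a1 lies below the line in both panels, and Clmn (-1.46 and 0.63) lies at the upper left of the left panel.

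What followed at 600 mosmol/kg for genes with the same starting point as these 4 can be counted. Of the 310 genes at least 2-fold lower in Nfat5-KO_300, 235 (75.8%) were also lower in Nfat5-KO_600, 115 (37.1%) at least 2-fold, and 70 had a larger difference there, as Slco4a1 had. Another 35 (11.3%) were higher by at least 0.5 on the log2 scale at 600 mosmol/kg, as Clmn was. Of the 220 genes at least 2-fold higher in Nfat5-KO_300, 177 (80.5%) were also higher in Nfat5-KO_600, Phldb2 among them, and 90 (40.9%) at least 2-fold. With limits set after the values of the 4 genes were seen, 21 other genes (0.157% of 13414) shared the outline of Slco4a1, at least 2-fold higher in hypertonic medium in both genotypes and at least 2-fold lower in Nfat5-KO cells in both media. These included Aqp1, which encodes the water channel aquaporin-1, Pax2, which encodes a transcription factor of the developing kidney and collecting duct, and Igfbp7, which encodes a secreted binding protein of insulin-like growth factors. The outline of Scel, at least 0.5 down in Scr and at least 0.5 up in Nfat5-KO cells on the log2 scale, was shared by 121 other genes (0.902%), of which 66 were annotated as protein-coding. The outline of Clmn, at least 1 lower at 300 and at least 0.5 higher at 600 mosmol/kg in the knockout, was shared by 40 other genes (0.298%). Of these, 18 were annotated as protein-coding and many of the others are microRNA genes. The outlines were counted over genes with 0.5 FPKM in any of the 4 groups. They thus admit genes that reached it only at 600 mosmol/kg, which the 35 above exclude. That of Phldb2, within 0.2 in Scr and at least 0.7 down in Nfat5-KO cells, was shared by 191 other genes (1.42%), of which 120 were annotated as protein-coding.

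Genes of like pattern were ranked by the root mean square difference of log2(FPKM + 0.1), centred on each gene's mean, over the 4 groups and 11921 genes that reached 1 FPKM. With 4 points per gene this likeness is a description and no sign of a shared function or control. Nearest to Slco4a1 were Tmem238l (0.23), Afap1l1 (0.23), an actin filament associated protein, Chdh (0.36), the enzyme of choline oxidation to betaine aldehyde, and Kcnj16 (0.37), an inwardly rectifying potassium channel subunit. Chdh, whose product leads to the osmolyte betaine, had 2.38 FPKM in Scr_300, 19.3 in Scr_600 and 0.622 in Nfat5-KO_300, and its Nfat5-KO_600 level lay between the Scr levels. The fifth gene, Mir6993 (0.43), rested on 0 to 10 estimated reads per group. Nearest to Scel was Kif21a (0.027), with 1.94 FPKM in Scr_300, 1.09 in Scr_600, 0.520 in Nfat5-KO_300 and 0.958 in Nfat5-KO_600. Kif21a encodes a kinesin that restrains microtubule growth at the cell cortex, where KANK proteins recruit it to the complex that LL5 beta organizes. The other 4 genes nearest to Scel, Gm26202, Mir1898, Mir301 and Scarna8, are small RNA genes with few reads (4 to 30 in the Scr groups).

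Nearest to Clmn were Snord98 (0.047), a small nucleolar RNA with 3 to 15 estimated reads, Kitl (0.11), the ligand of the KIT receptor, Pgam2 (0.17), the muscle form of phosphoglycerate mutase, Arg2 (0.18), the mitochondrial arginase, and Spaca7 (0.18). Kitl had 0.741 FPKM in Scr_300, 0.676 in Scr_600, 0.212 in Nfat5-KO_300 and 1.33 in Nfat5-KO_600. Nearest to Phldb2 were Epha2 (0.044), an ephrin receptor kinase, the pseudogene Gm10059 (0.085), Htra1 (0.094), a secreted serine protease, Procr (0.10), the receptor of protein C, and Fn1 (0.11), fibronectin of the extracellular matrix. Epha2 had 15.3 FPKM in Scr_300, 14.7 in Scr_600, 35.3 in Nfat5-KO_300 and 18.8 in Nfat5-KO_600, and Fn1 had 22.0, 19.5, 43.0 and 23.9 FPKM in the same order. Within a distance of 0.25 there were 116 genes for Phldb2, 15 for Scel, 8 for Clmn and 2 for Slco4a1. The same distance is a smaller part of the range of Slco4a1 than of that of Phldb2, so these counts do not compare how frequent the patterns are.

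**Figure D3:**
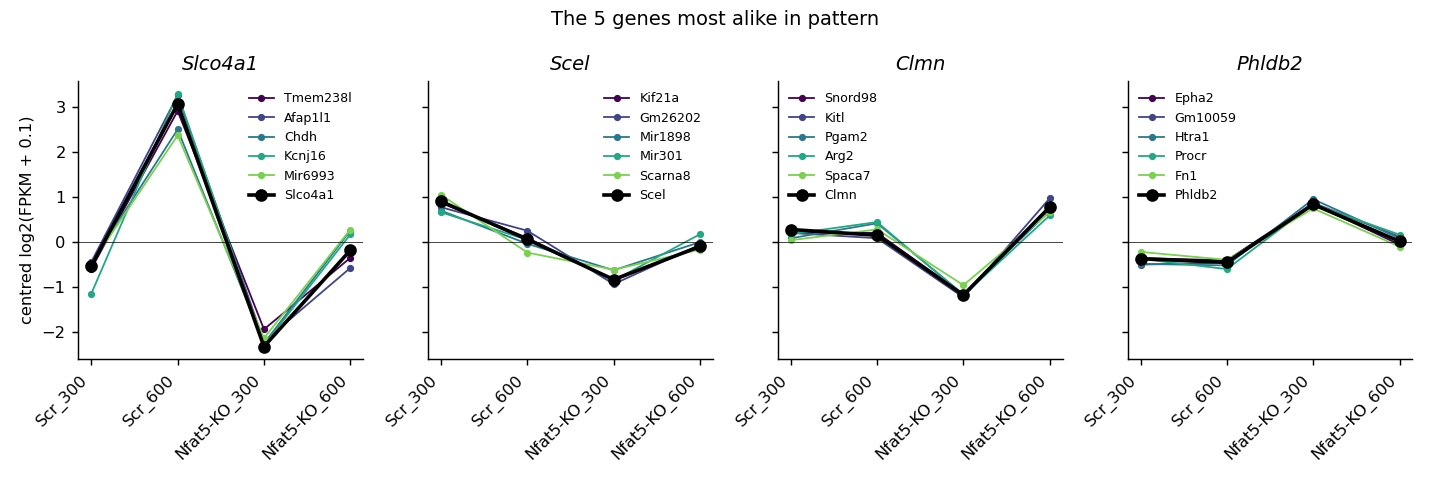
Centred log2(FPKM + 0.1) (vertical axis) over the 4 groups (horizontal axis) for each of the 4 genes (black) and the 5 genes nearest to it (coloured). The lines of Kif21a and Scel nearly coincide (distance 0.027), as do those of Epha2 and Phldb2 (0.044), while the genes around Slco4a1 lie 0.23 to 0.43 away.

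Of 14 OATP genes, 3 reached 0.5 FPKM, and all 3 were higher in hypertonic than in isotonic medium in both genotypes. Slco2a1, the prostaglandin transporter, had 1.09 FPKM in Scr_300, 2.34 in Scr_600, 0.799 in Nfat5-KO_300 and 3.64 in Nfat5-KO_600, and Slco3a1 had 6.63, 9.19, 6.85 and 9.27 FPKM in the same order. The hypertonic log2 ratios in Scr and Nfat5-KO cells were 1.04 and 2.06 for Slco2a1 and 0.46 and 0.43 for Slco3a1, beside 3.60 and 2.14 for Slco4a1. The genotype log2 ratios of Slco2a1 were -0.40 and 0.61 at 300 and 600 mosmol/kg, and those of Slco3a1 were 0.05 and 0.01, against -1.79 and -3.25 for Slco4a1. Of 8 expressed genes of thyroid hormone transport and action, 0 were at least 2-fold different at 300 mosmol/kg (median 0.06), and 1, Rxra, a nuclear receptor partner of the thyroid hormone receptors, was at least 2-fold higher in the knockout at 600 mosmol/kg (log2 ratio 1.41, list median -0.13).

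Among markers of another nephron segment, Aqp1 moved with Slco4a1 and the others did not. Of 6 proximal tubule markers, 2 reached 0.5 FPKM, and their summed level was 23.7 FPKM in Scr_300, 318 in Scr_600, 1.02 in Nfat5-KO_300 and 4.75 in Nfat5-KO_600. Nearly all of it was Aqp1, with 23.6, 318, 0.653 and 3.51 FPKM, while Slc34a1, Slc5a2 and Slc22a6, the phosphate, glucose and organic anion transporters that define the segment, were at or below 0.0156 FPKM in every group. The second marker past 0.5 FPKM, Lrp2 (megalin), had 0.00094, 0.0116, 0.168 and 1.07 FPKM in the same order of groups and was thus higher in the knockout, as was Cubn (cubilin, log2 ratio 1.03 and 0.92 at 300 and 600 mosmol/kg, at most 0.194 FPKM). The part of these markers in the Slco4a1 result was not tested. All 12 principal cell markers together summed to 10.1 and 9.64 FPKM in Scr_300 and Scr_600 and to 20.7 and 47.0 FPKM in Nfat5-KO_300 and Nfat5-KO_600. In these knockout groups Gata3 gave 11.8 and 30.0 FPKM, Scnn1a 3.56 and 7.03 FPKM and Hsd11b2 1.95 and 6.18 FPKM. Not all markers followed the sum. At 600 mosmol/kg the genotype log2 ratio was -2.25 for Kcnj1 (0.725 FPKM in Scr_600, 0.0740 in Nfat5-KO_600), -0.11 for Aqp2 and 0.43 for Aqp3. The part of the principal cell markers in the genotype differences was not tested. No marker of thick ascending limb, fibroblasts or endothelium reached 0.5 FPKM, while 2 of 8 intercalated cell and 2 of 5 leukocyte markers did.

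Of the cornified envelope and epithelial barrier genes, 20 were expressed, Scel included. At 300 mosmol/kg, where the choice of Scel fixed its own place, 16 of them were higher in the knockout and Cnfn (2.93) and Dsc2 (1.01) were higher by at least 1 on the log2 scale, with a list median of 0.20. Cnfn, which encodes the envelope protein cornifelin, had 0.544 FPKM in Scr_300, 0.213 in Scr_600, 4.82 in Nfat5-KO_300 and 0.507 in Nfat5-KO_600. Dsc2, a desmosomal cadherin, had 9.58, 6.32, 19.4 and 8.47 FPKM. Cstb, which encodes cystatin B, had signs like those of Scel in that medium and in both responses. It had 342 FPKM in Scr_300, 220 in Scr_600, 202 in Nfat5-KO_300 and 248 in Nfat5-KO_600 (log2 ratio -0.76 at 300 mosmol/kg, responses -0.64 in Scr and 0.30 in Nfat5-KO cells). The envelope partners of sciellin, Ppl (periplakin, log2 ratio 0.31 at 300 mosmol/kg), Evpl (envoplakin, 0.15) and Tgm1 (the cross-linking transglutaminase, 0.62), lay above 0. Without Scel, the genotype median was 0.23 at 300 and 0.01 at 600 mosmol/kg, and Scel itself (-0.16) lay within the range of the list at 600 mosmol/kg. In Scr cells the list was lower in hypertonic medium (median -0.60, 4 of 20 at least 2-fold lower), as Scel was, with Sprr1a (88.2 against 23.9 FPKM), Pkp1, Krt19 and Cnfn past 2-fold. In Nfat5-KO cells the median was -0.52, and Scel was 1 of 4 genes with a higher value in hypertonic medium. The all-gene median moved by 0.13 in Scr and by 0.24 in Nfat5-KO cells with scaling to the same FPKM sum, which is less than these list medians.

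The list of calponin-homology membrane anchors and the LINC complex, the bridge between nucleus and cytoskeleton, had 15 expressed genes, Clmn included. Of the other 14, 10 were higher than in Scr_300 and 2 at least 2-fold, Parvb (log2 ratio 2.87) and Plec (1.10). Parvb, which encodes the focal adhesion protein beta-parvin, had 0.487 FPKM in Scr_300, 0.330 in Scr_600, 4.19 in Nfat5-KO_300 and 4.45 in Nfat5-KO_600. At 600 mosmol/kg, 3 of the 14 were at least 2-fold higher in Nfat5-KO cells, Parvb (3.40), Dst (1.27), a plakin, and Syne3 (1.07), a nesprin of the outer nuclear membrane, while Clmn was at 0.63. Clmn is known to respond to retinoic acid, and of 6 expressed genes of that response Dhrs3, which encodes a retinaldehyde reductase, was likewise at least 2-fold lower in Nfat5-KO_300 (log2 ratio -1.33). Dhrs3 had 5.61 FPKM in Scr_300, 12.5 in Scr_600, 2.17 in Nfat5-KO_300 and 12.7 in Nfat5-KO_600, so its genotype difference was 0.02 at 600 mosmol/kg, but unlike Clmn it had a hypertonic response in Scr cells (1.15). Crabp2, of the same list, had 5.14 FPKM in Scr_300, 4.26 in Scr_600, 3.48 in Nfat5-KO_300 and 5.98 in Nfat5-KO_600. Its genotype log2 ratios of -0.55 and 0.48 at 300 and 600 mosmol/kg changed sign as those of Clmn did. Aldh1a1 was at 0.27 and 1.37. The median of the retinoic acid list was 0.10 at 300 mosmol/kg (5 genes compared) and 0.40 at 600 mosmol/kg. Rara and Rarg, the expressed retinoic acid receptors, had 4.22 to 6.53 and 14.1 to 19.1 FPKM over the 4 groups. Unlike Clmn they were higher in the knockout in both media, with log2 ratios of 0.29 and 0.37 for Rara and 0.10 and 0.44 for Rarg. Stra6, named to complete the list, reached 0.5 FPKM only at 600 mosmol/kg and was lower in the knockout there (-0.95).

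The cortical microtubule complex had 20 expressed genes, Phldb2 included. Of the other 19, 0 were at least 2-fold higher in Nfat5-KO_300 and 1, Kif21a, was at least 2-fold lower (log2 ratio -1.72), with a median of 0.13. Its paralog Phldb1 had 8.13 FPKM in Scr_300, 11.3 in Scr_600, 11.2 in Nfat5-KO_300 and 15.4 in Nfat5-KO_600, with genotype log2 ratios of 0.46 and 0.44. Genes of the proteins that act together with LL5 beta are named for their role and not by the general rule. Their log2 ratios at 300 mosmol/kg were 0.46 for Erc1 (ELKS), 0.14 for Clasp1, 0.01 for Clasp2, -0.19 for Kank1, -0.18 for Kank2 and -0.20 for Kank3. Among the liprins they were -0.03 for Ppfia1 and -0.13 for Ppfia3 (both liprins alpha) and 0.21 for Ppfibp1 (liprin beta). At 600 mosmol/kg 0 of the 20 were at least 2-fold different (median 0.07). Of 12 expressed genes that make or remove PIP3, the lipid bound by LL5 beta, 0 were at least 2-fold different at 300 mosmol/kg (median 0.03), and 1, Inpp4b, was at least 2-fold lower at 600 mosmol/kg (log2 ratio -1.72, at most 0.714 FPKM).

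**Figure D4:**
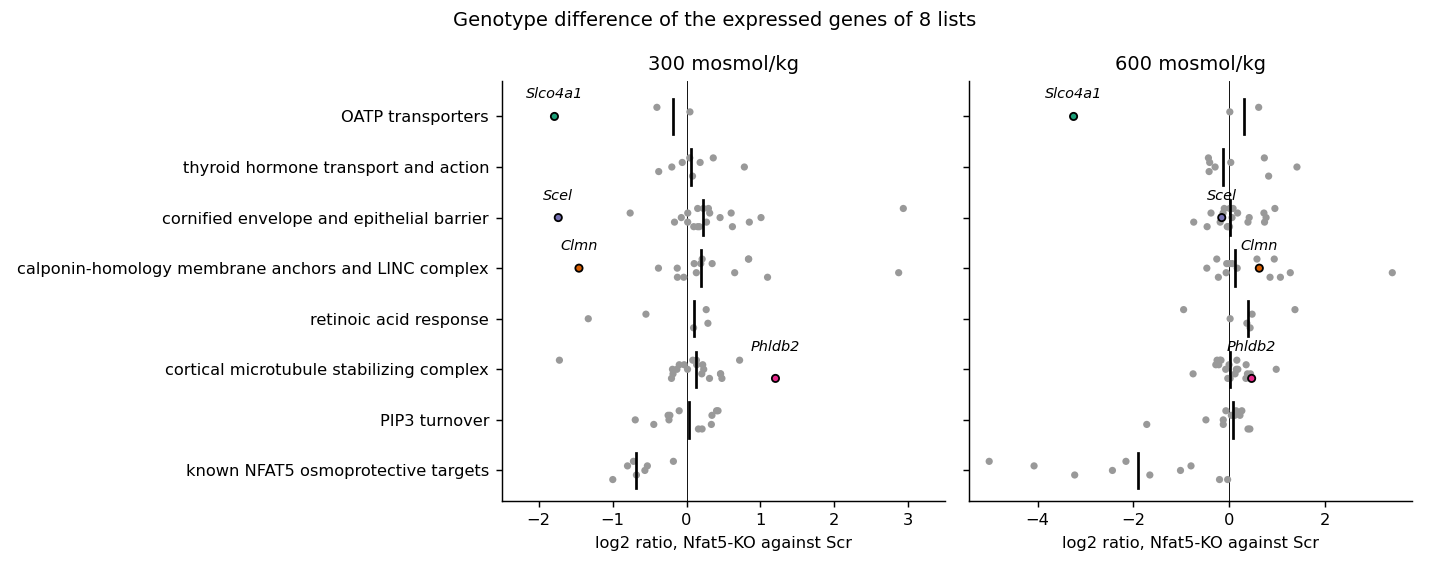
Genotype log2 ratio (horizontal axis) at 300 mosmol/kg (left) and 600 mosmol/kg (right) for the expressed genes of 8 lists (rows), with 1 point per gene, the 4 named genes coloured and outlined, and a vertical bar for the median of the others in the row. The place of the 4 genes in the left panel was fixed by their choice, while at 600 mosmol/kg Slco4a1 (-3.25) lies left of the other 2 genes in its row and Scel (-0.16), Clmn (0.63) and Phldb2 (0.47) lie among the others in theirs.

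The nearest expressed neighbours on the chromosome, 3 on each side, show whether a stretch of chromosome shared the difference. Around Scel the 6 neighbours had genotype log2 ratios of -0.32 to 0.23 at 300 mosmol/kg against -1.74 for Scel. Around Slco4a1 the 5 protein-coding neighbours lay between -0.37 and -0.03. The nearest, Mir133a-2, 57.8 kb away, had 0.134 FPKM in Scr_300, 2.12 in Scr_600, 0 in Nfat5-KO_300 and 0.0641 in Nfat5-KO_600, an order of groups like that of Slco4a1, but from an estimated 1, 16, 0 and 1 reads. Next to Phldb2, Plcxd2 on the same strand ends 5.67 kb upstream of the annotated Phldb2 gene and had 1.96 FPKM in Scr_300, 1.96 in Scr_600, 4.22 in Nfat5-KO_300 and 4.38 in Nfat5-KO_600. Plcxd2 thus shared the isotonic difference of Phldb2 (log2 ratio 1.07) but kept it in hypertonic medium (1.12 against 0.47 for Phldb2). Abhd10, 3.29 kb away on the other side, was at 0.24 and 0.71.

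Around Clmn the neighbours were mixed. Dicer1, 11.2 kb away, was at 0.43 at 300 and 0.69 at 600 mosmol/kg. On the other side, the long noncoding RNA gene Gm28875, 60.4 kb away, had 1.76 FPKM in Scr_300, 0.918 in Scr_600, 0.905 in Nfat5-KO_300 and 1.97 in Nfat5-KO_600, so its genotype log2 ratio turned from -0.88 to 1.02 as that of Clmn turned from -1.46 to 0.63. Syne3, 64.9 kb away, went from -0.04 to 1.07. Farther off, Serpina3g (-3.02 and -2.65) was lower in both media, and Serpina1e (-3.02 and -0.14) only differed past 2-fold at 300 mosmol/kg.

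**Figure D5:**
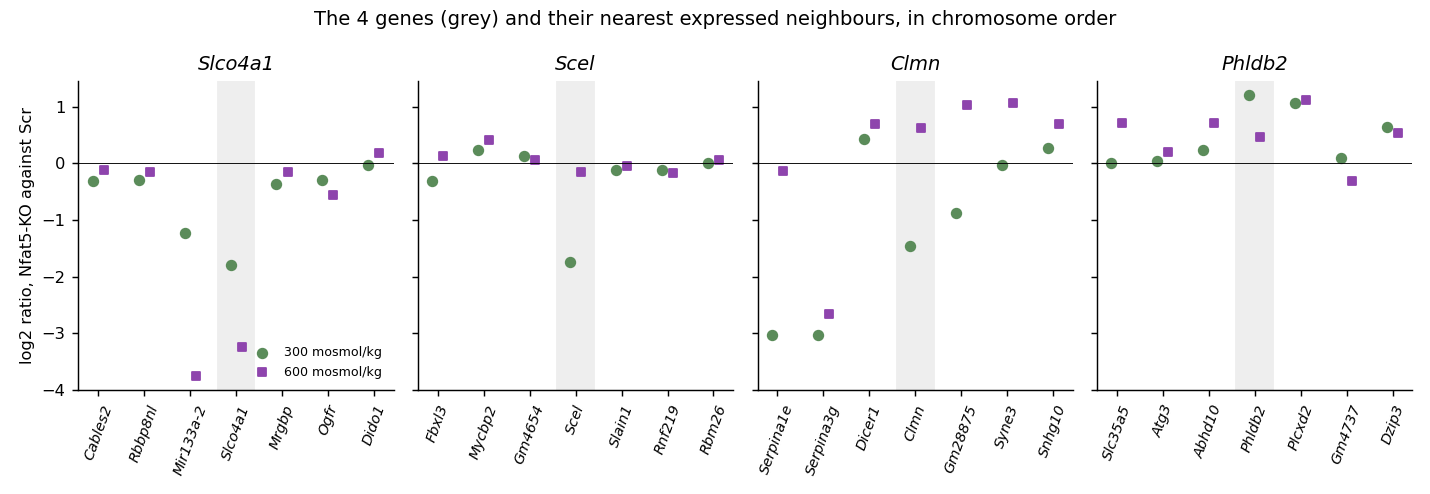
Genotype log2 ratio (vertical axis) at 300 mosmol/kg (circles) and 600 mosmol/kg (squares) for each of the 4 genes (grey band) and its 3 nearest expressed neighbours on each side, in chromosome order and not to scale of distance. The neighbours of Scel lie between -0.32 and 0.41, Plcxd2 next to Phldb2 lies at 1.07 and 1.12, and the point of Mir133a-2 rests on at most 16 estimated reads.

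The study measured Slco4a1 also by RT-qPCR, which is not analysed here, and its primers show which part of the transcript that assay reads. They are 20 bases each, printed 5′ to 3′ with no capitals since no part is marked.
Slco4a1 sense: atcgcagggctcactttcaa
Slco4a1 antisense: ctctggagctgttctgtggg

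The sense primer matched chr2:180473642-180473661 in exon 11 and the antisense primer chr2:180474215-180474234 in exon 12, the last exon, of the transcript with 12 exons. The product has 152 bases and crosses the last intron. Of the 5 annotated transcripts, 4 hold both sites, 1 of them with the last intron retained and a product of 593 bases. FPKM, in contrast, sums reads over all 4799 exon bases of the gene.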

How the data were processed

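Per the labels, poly(A) RNA of 12 mpkCCD cultures was sequenced after 5 days at 300 or 600 mosmol/kg. The authors aligned the paired-end reads to GRCm38/mm10 (HISAT2), counted them over genes (HTSeq) and deposited FPKM, 1 value per gene and group. Versions, the annotation release and the strand setting are not given in the sources used here.

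Of 54839 rows, 2436 without a value, 311 exact copies of other rows and all rows of 37 symbols listed with differing values were dropped, which left 52015 genes. Gene lengths and positions came from GENCODE M21 (GRCm38), matched by symbol (13258 of 13414 expressed genes), and promoters from RefSeq (27025 genes).

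Log2 ratios of FPKM + 0.1 were taken for 4 comparisons, over genes reaching 0.5 FPKM in 1 of the 2 groups, and a difference of at least 1 was counted as 2-fold. Folds of the named genes are ratios of FPKM, and log2 ratios understate changes of low genes. No count test could be run on 1 value per group, and the planned limma fit needed a value per library.

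The depth was read from the low values. Multiplied by exon length, they fell on 2 steps in each Scr group and 4 in each Nfat5-KO group, as many as there were libraries, with 79.0% to 86.6% of low genes on a step (within 1e-05). Such steps fit 1 read in 1 library and a group value that is the mean of its libraries, but how the libraries were combined is not given in the sources used here. Reads behind a value were estimated from the mean step, with exact Poisson intervals (95%). The script was tested on simulated data with counting noise only, for Nfat5-KO_300 against Scr_300. All 200 genes with a known change passed 2-fold in the right direction, but 95 unchanged genes passed it too. Counting noise can thus put genes past 2-fold in the counts over all genes. Python 3.11.15, pandas 2.3.3, numpy 2.4.6 and scipy 1.17.1 were used.

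The 4 genes and the gene lists were chosen with earlier results of these data known. Named genes were the 4 genes, the 5 nearest in pattern, 3 neighbours on each side and any overlapping gene, Nfat5, and list members with at least 5 FPKM or a 2-fold change. Alternatives were a pseudocount of 1 or 0.01, median-of-ratios scaling, scaling to the same FPKM sum and, for counts of genes, no filter or a mean of at least 1 FPKM.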

Additional observations from a re-analysis of the deposited data

Results flagged for a closer look

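Scel was flagged because its hypertonic response had opposite signs in the genotypes, with -0.84 on the log2 scale in Scr and 0.74 in the knockout. Clmn was flagged because its genotype difference had opposite signs in the media, with -1.46 on the log2 scale in isotonic and 0.63 in hypertonic medium. With 1 value per group, neither difference was tested.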

How the results depend on the processing

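No paired analysis was possible because the deposited values hold 1 column per group and none per replicate, and for the same reason no replicate was left out. Spread between cultures and between clones is therefore unknown, and the depth of 29300000 to 37500000 reads per library limits only counting error. Of 80 alternative values of the 4 genes, 49 stayed within the counting interval, 29 moved beyond it with the same direction and 2 changed direction. The pseudocount of 0.01 moved none of them.

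Scaling to the same FPKM sum moved the median of all genes by 0.01 and 0.13 in the genotype comparisons at 300 and 600 mosmol/kg and by 0.13 and 0.24 for the hypertonic response in Scr and Nfat5-KO cells. It turned the Scr response of Clmn from -0.13 to 0.0012 and that of Phldb2 from -0.08 to 0.046, and the cause is the construction of the scaling, which adds the same amount to every gene. At 600 mosmol/kg it gave genotype log2 ratios of -3.13 for Slco4a1, -0.029 for Scel, 0.76 for Clmn and 0.60 for Phldb2. The Scr response became 3.73 for Slco4a1 and -0.71 for Scel. The Nfat5-KO response became 2.37 for Slco4a1, 0.98 for Scel, 2.20 for Clmn and -0.58 for Phldb2, and the response difference 1.69 for Scel, 2.19 for Clmn and -0.62 for Phldb2. Median-of-ratios scaling gave 0.58 for Clmn and 0.42 for Phldb2 at 600 mosmol/kg and -0.85 for the Nfat5-KO response of Phldb2.

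A pseudocount of 1 gave genotype log2 ratios at 300 mosmol/kg of -1.23 for Slco4a1, -1.61 for Scel, -1.29 for Clmn and 1.16 for Phldb2, and at 600 mosmol/kg of -3.03 for Slco4a1 and 0.59 for Clmn. It gave a response of 3.32 for Slco4a1 in Scr and of 1.52 for Slco4a1, 1.76 for Clmn and -0.79 for Phldb2 in Nfat5-KO cells, and response differences of -1.80 for Slco4a1, 1.46 for Scel and 1.87 for Clmn. A larger pseudocount draws low levels together by construction.

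The counts of genes at least 2-fold changed depended on the filter and the pseudocount. At 300 mosmol/kg, 220 higher and 310 lower became 48 and 87 with a pseudocount of 1, 581 and 647 with no filter, and 106 and 153 with a mean of at least 1 FPKM. At 600 mosmol/kg, 491 and 481 became 135 and 203, 1086 and 798, and 259 and 289 in the same order. In Scr cells, 622 and 370 became 251 and 124, 1098 and 737, and 352 and 201. In Nfat5-KO cells, 812 and 534 became 259 and 230 with a pseudocount of 1 and 1318 and 274 with scaling to the same FPKM sum, and 812 became 1422 with no filter and 467 with a mean of at least 1 FPKM.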
